A study of Homo sapiens with 4 samples.

Results

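The genes described here are grouped as feedback genes of ERK signalling, though the products of some also act on, or prefer, other MAP kinases. They are the MAP kinase phosphatases DUSP1, DUSP4, DUSP5, DUSP6 and DUSP10, the Sprouty genes SPRY1, SPRY2 and SPRY4, and the SPRED genes SPRED1 and SPRED2. They were taken as a fixed list of 10 gene symbols, matched through Entrez Gene identifiers, and all 10 were found among the 19801 genes with expression values. RNA was sequenced from LNCaP cells, an androgen-sensitive human prostate cancer line, that had been transfected for 24 h with an empty vector or with the AR1-651 construct. In each background the cells were then left untreated or given AIL (ailanthone, a natural compound from Ailanthus altissima) for a further 12 h. This gives 4 conditions with 1 library each, empty vector alone, the same vector with AIL (empty vector + AIL), AR1-651 alone, and AR1-651 with AIL (AR1-651 + AIL), and values for all 4 libraries follow that order below. All 4 came from 1 transfected cell line.

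ERK is the last kinase of the RAS-RAF-MEK-ERK cascade, which carries signals from growth factor receptors to the nucleus. DUSP phosphatases remove phosphate from MAP kinases, and each has its own substrates and place in the cell. Sprouty and SPRED proteins act higher up, between the receptor and RAF, and many of these genes are themselves induced when ERK is active. Stress and other signals also induce some of them, DUSP1 in particular.

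The values were RPKM, read numbers divided by the length of the transcript and by the mapped total of each library. With 1 library per condition there was no replicate error, so no difference has a test, and no p-value is given. The spacing of the low values showed what 1 read was worth in each library, from which the number of reads in each library was estimated. The estimates were 5.01, 4.74, 5.43 and 5.62 M reads. Read numbers for a gene were computed from this spacing and the longest transcript of the gene. They are approximate and tend to be high, because summed over all genes they came to 1.15 to 1.21 times the reads of the library. The 95% intervals below are exact intervals for these read numbers that cover counting error only, and not the variation between cultures. Where the read numbers are too high, the intervals are too narrow even for counting error. Changes were differences of log2(RPKM + 1), which understate the change of genes with low RPKM. They are given for the 14626 genes whose RPKM reached 1 in some library, of which 8 belong to the list. In bulk RNA, fewer cells that express a gene and less RNA per cell cannot be told apart. DUSP6 and SPRY4 did not reach this level in any library. SPRY1 reached it with empty vector + AIL alone and SPRY2 only in the libraries with AIL.

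Before the results, the labels were checked. The 8 markers of luminal prostate cells were above 0 in every library, with a summed RPKM of 1615 to 3802. Markers of other cells were low. Their summed RPKM was 2.28 to 5.02 for fibroblasts, 0.17 to 0.72 for endothelium, 0.36 to 0.94 for the leukocyte gene PTPRC and 0 to 0.21 for the basal keratin KRT14. KLK3, the androgen-induced gene for prostate-specific antigen, had RPKM of 286.6 and 302.6 with empty vector, without and with AIL, and of 1442 and 581.5 with AR1-651. The median change of all genes was -0.02 on the log2 scale with AIL in the empty vector background and 0.13 in the AR1-651 background. It was -0.30 from empty vector to AR1-651 and -0.03 between the same backgrounds under AIL. Scaling by the median ratio of the libraries brought these medians to -0.02, -0.03, -0.08 and 0.01.

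The sequences just upstream of the genes are shown first for DUSP1, DUSP10 and SPRY2, the phosphatase and Sprouty genes with the largest log2 increases with AIL in the empty vector background, and for SPRED1, which was lower with AIL. Each is the 250 bases before the RefSeq transcription start on GRCh38.p14, read 5′ to 3′ on the strand of the gene. The windows are chr5:172771196-172771445 on the minus strand for DUSP1, chr1:221742090-221742339 on the minus strand for DUSP10, chr13:80341127-80341376 on the minus strand for SPRY2 and chr15:38252586-38252835 on the plus strand for SPRED1. Capitals mark the motifs found.
DUSP1: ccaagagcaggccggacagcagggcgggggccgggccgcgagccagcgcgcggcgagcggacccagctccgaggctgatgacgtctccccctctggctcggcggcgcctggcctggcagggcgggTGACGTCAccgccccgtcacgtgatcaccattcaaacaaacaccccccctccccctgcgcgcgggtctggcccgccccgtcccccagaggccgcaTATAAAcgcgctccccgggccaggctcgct
DUSP10: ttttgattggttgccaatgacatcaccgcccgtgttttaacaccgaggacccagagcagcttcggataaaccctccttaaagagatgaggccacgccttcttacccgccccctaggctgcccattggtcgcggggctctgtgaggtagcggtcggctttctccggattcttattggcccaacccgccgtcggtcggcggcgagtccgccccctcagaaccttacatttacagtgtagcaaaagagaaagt
SPRY2: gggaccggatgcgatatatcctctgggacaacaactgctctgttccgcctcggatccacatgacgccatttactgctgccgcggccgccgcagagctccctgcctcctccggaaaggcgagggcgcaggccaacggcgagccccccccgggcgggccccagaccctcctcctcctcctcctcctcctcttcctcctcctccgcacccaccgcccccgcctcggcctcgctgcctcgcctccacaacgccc
SPRED1: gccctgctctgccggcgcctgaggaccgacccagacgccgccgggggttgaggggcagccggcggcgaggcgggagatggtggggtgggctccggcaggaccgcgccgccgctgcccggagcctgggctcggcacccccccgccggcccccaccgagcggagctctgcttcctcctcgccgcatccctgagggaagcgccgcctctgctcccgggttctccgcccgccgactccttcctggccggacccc

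A window was held for 8 of the 10 genes, all but DUSP4 and DUSP5. The motifs searched on both strands were the cyclic AMP response element TGACGTCA, the AP-1 site TGANTCA, the ETS site CCGGAAGT, the TATA box TATAAA and the CArG box of the serum response element. DUSP1 held the first of these at 125 to 118 bases before the start and a TATA box at 30 to 25 bases before it. In all, 2.85% of 11173 windows of expressed genes held the cyclic AMP response element and 5.58% held the TATA box. None of the 8 windows matched the AP-1, ETS or CArG letters, which 3.78%, 7.23% and 0.967% of all windows held. These matches describe letters in a short window and not binding. The GC content was 74.4% for DUSP1, 56.4% for DUSP10, 70.4% for SPRY2 and 78.4% for SPRED1, against a median of 64.8% over all windows.

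In untreated cells with empty vector, DUSP1 mRNA was by far the most abundant of the 10, at RPKM 32.5 (95% counting interval 29.1 to 36.2), above the level of 86.2% of all genes. SPRED1 at 4.83 (4.16 to 5.56), SPRED2 at 4.68 (3.79 to 5.71) and DUSP4 at 4.23 (3.49 to 5.05) came next, and these neighbours did not differ beyond counting error. DUSP10 at 3.07 (2.19 to 4.15) and DUSP5 at 2.23 (1.52 to 3.25) followed, again with overlapping intervals. SPRY1, SPRY2 and DUSP6 were at 0.55, 0.37 and 0.29, on 7, 4 and 6 reads, and SPRY4 was listed at 0. With AIL in the same background the order was DUSP1, DUSP10, DUSP4, DUSP5, SPRED2, SPRY2, SPRED1, SPRY1, DUSP6 and SPRY4. SPRED1 thus moved from the second place to the seventh, and DUSP10 from the fifth to the second. The summed RPKM of the 10 genes was 52.8 and 142 with empty vector, without and with AIL, and 48.6 and 98.9 with AR1-651. DUSP1 made up 61.6%, 70.1%, 66.5% and 67.7% of these sums, so they follow mainly that gene.

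**Figure D1:**
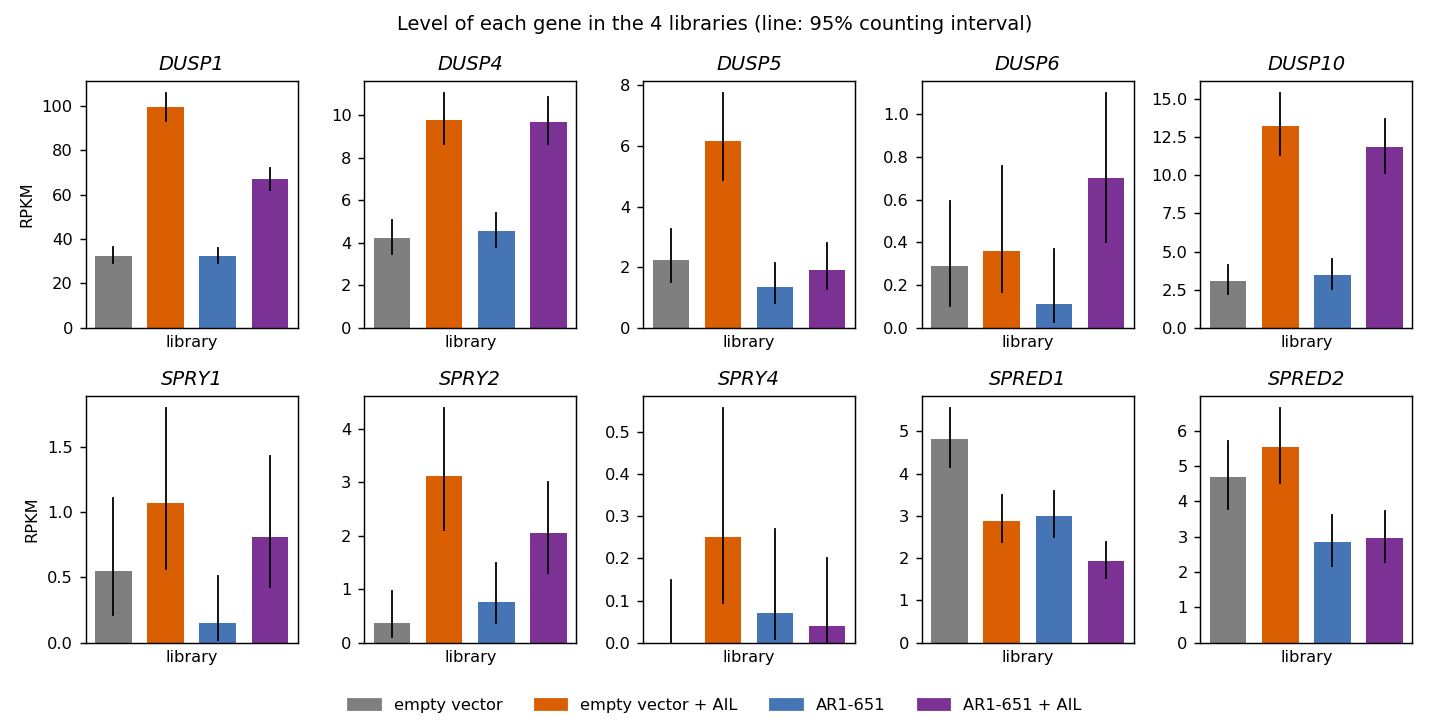
RPKM of each gene in the 4 libraries (1 bar per library, coloured as in the key; vertical axes start at 0 and differ between genes; lines are 95% counting intervals, with no replicates). DUSP1, DUSP4, DUSP10 and SPRY2 are higher in both libraries with AIL than in both without, DUSP5 stands out with empty vector + AIL alone, and SPRED1 is highest with empty vector.

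The first comparison asked how AIL changed these genes in cells with empty vector. DUSP1, DUSP4, DUSP5, DUSP10 and SPRY2 were at least 2-fold higher with AIL, which makes 5 of the 8 genes that passed the filter, and none was at least 2-fold lower. Over all genes 9.53% were higher by this measure and 9.03% lower. The median change of the 8 genes was 1.10 against -0.02 for all genes. SPRY1 and SPRY2 passed the filter only through libraries with AIL, so they could hardly have been counted as lower, and the count and the median describe these genes without standing as evidence of a direction.

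The second comparison made the same contrast in cells with AR1-651. Here DUSP1 and DUSP10 were at least 2-fold higher, 2 of the 8 genes, and none was at least 2-fold lower. The background was 14.9% of genes higher and 5.74% lower, or 10.9% and 8.68% with median-ratio scaling. The median change of the 8 genes, with the same limit, was 0.73 against 0.13 for all genes. DUSP1 lay close to the threshold, at 1.03 on the log2 scale, and came to 0.81 with median-ratio scaling and 0.93 with the median of genes of similar transcript length subtracted. DUSP10 stayed above the threshold in both. The comparisons share no library, and the plot of AIL changes in the 2 backgrounds shows each gene in both.

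**Figure D2:**
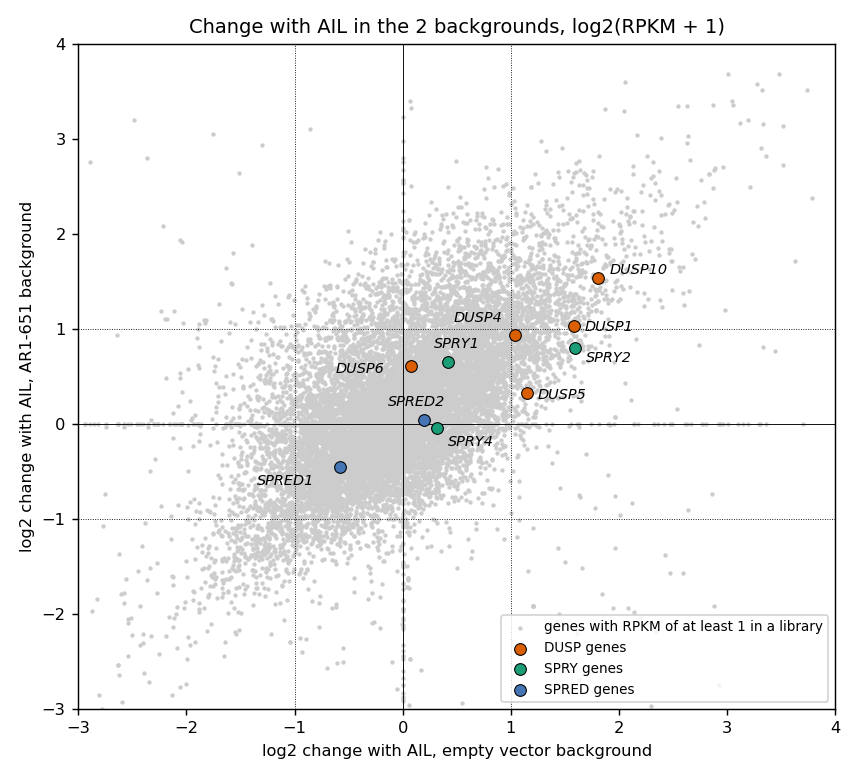
Change with AIL in the empty vector background (horizontal axis) and in the AR1-651 background (vertical axis), as differences of log2(RPKM + 1), for each gene described (coloured by family) and for all genes that passed the filter (grey, 61 of them outside the axes); dotted lines mark 2-fold. DUSP10 and DUSP1 are past 2-fold in both backgrounds, DUSP4, DUSP5 and SPRY2 only with empty vector, and SPRED1 is below 0 in both.

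DUSP1 encodes a nuclear phosphatase that acts on p38 and JNK as well as on ERK, and it is an immediate early gene. Its RPKM was 32.5, 99.5, 32.4 and 66.9 in the 4 libraries. Both libraries with AIL were above both without. In the empty vector background the ratio with AIL was 3.06 (95% counting interval 2.70 to 3.48, log2 change 1.58), rank 419 of 14626 genes. In the AR1-651 background the ratio was 2.07 (1.82 to 2.36), at rank 2087. The untreated libraries had nearly the same DUSP1 level, while under AIL the AR1-651 library had 0.673 times the level of the empty vector library (0.611 to 0.741). DUSP1 rests on 329 to 952 reads and is the most precisely counted of the 10.

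DUSP10 encodes a phosphatase that prefers p38 and JNK. Its RPKM was 3.07, 13.3, 3.43 and 11.9 in the 4 libraries, on 41, 168, 50 and 178 reads. The libraries with AIL were again both above those without. Of the 10 genes it had the largest log2 change with AIL in each background with the pseudocount of 1. With a pseudocount of 0.1 SPRY2 was larger with empty vector, at 2.78 against 2.08, and DUSP6 and SPRY1 were larger with AR1-651, at 1.93 and 1.86 against 1.76. The ratio was 4.32 (3.06 to 6.25) with empty vector, a log2 change of 1.81 at rank 266 of 14626. With AR1-651 it was 3.45 (2.50 to 4.80), a log2 change of 1.54 at rank 761. AR1-651 itself went with log2 differences of 0.12 without AIL and -0.15 with AIL, both within counting error.

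DUSP4 encodes a nuclear phosphatase and is a well known target of ERK signalling. Its RPKM was 4.23, 9.78, 4.57 and 9.69 in the same order. The values with AIL were nearly equal in the 2 backgrounds, as were those without. The ratio with AIL was 2.31 (1.86 to 2.91) with empty vector and 2.12 (1.73 to 2.62) with AR1-651. The second passes 2-fold as a ratio of RPKM but gives a log2 change of 0.94 after the pseudocount of 1, so it was not counted above. DUSP4 therefore falls outside the count for the AR1-651 background by a narrow margin on this scale. Its change there was 1.07 with a pseudocount of 0.1. It came to 0.76 with median-ratio scaling and 0.66 with the median of genes of similar transcript length subtracted.

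DUSP5, a nuclear phosphatase specific for ERK, had a different pattern. Its RPKM was 2.23 in the empty vector library and 6.18 with empty vector + AIL, against 1.34 with AR1-651 and 1.92 with AR1-651 + AIL, on 29, 75, 19 and 28 reads. One library, empty vector + AIL, stood above the other 3. AIL went with a ratio of 2.77 (1.76 to 4.35) in the empty vector background and 1.43 (0.767 to 2.70) in the AR1-651 background, where the interval includes 1. The log2 changes were 1.15 and 0.32, a difference of -0.83 that could not be tested without replicates. Under AIL the AR1-651 library had 0.311 times the DUSP5 level of the empty vector library (0.196 to 0.492), a log2 difference of -1.30 at rank 14460 of 14626 from the top. DUSP5 also has pseudogene copies, and how reads shared with them were counted is not given in the sources used here.

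DUSP6, the cytoplasmic phosphatase specific for ERK that is often used as a readout of the pathway, was scarcely detected. Its RPKM was 0.29, 0.36, 0.11 and 0.70 in the 4 libraries, on about 6, 8, 3 and 17 reads. The AR1-651 + AIL library was highest. Against AR1-651 its ratio was 6.36 with an interval of 1.58 to 29.1, since the lower value rests on 3 reads. The change with AIL in the empty vector background was 0.08 on the log2 scale and was not detectable at this depth.

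Among the Sprouty genes, which restrain receptor signalling upstream of RAF, SPRY2 had the highest level reached. Its RPKM was 0.37 and 3.12 with empty vector, without and with AIL, and 0.76 and 2.06 with AR1-651, on 4, 31, 9 and 24 reads. Both libraries with AIL were above both without. The ratio was 8.43 (2.90 to 31.9) in the empty vector background and 2.71 (1.16 to 6.29) in the AR1-651 background. The log2 changes were 1.59 and 0.80, so SPRY2 passed 2-fold on that scale only with empty vector. With AR1-651 against empty vector the SPRY2 interval was 0.580 to 9.23 without AIL and 0.366 to 1.15 with AIL, and both include 1.

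SPRY1 had RPKM of 0.55, 1.07, 0.15 and 0.81 in the same order, on about 7, 13, 2 and 12 reads. The libraries with AIL were the higher ones in each background. Its ratio with AIL was 5.40 (1.29 to 53.3) with AR1-651, where the lower value rests on 2 reads, and its interval with empty vector, 0.728 to 5.81, includes 1. SPRY4 was listed at 0 in the empty vector library and at 0.25, 0.07 and 0.04 in the other 3, in order. These are at most 6 reads, so the order of the libraries is not reliable, and the counts below that include SPRY4 carry that limit.

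The products of the SPRED genes recruit the RAS inhibitor neurofibromin to the membrane. SPRED1 had RPKM of 4.83, 2.89, 3.01 and 1.93, with the highest value in the empty vector library and the lowest with AR1-651 + AIL. It was lower with AIL in both backgrounds, with ratios of 0.598 (0.470 to 0.767) and 0.641 (0.479 to 0.848), and the log2 changes of -0.58 and -0.45 did not reach 2-fold. With the median of genes of similar length subtracted these changes were -0.29 and -0.81. SPRED1 was the only gene of the 10 whose counting interval lay below 1 for AIL in both backgrounds, where 24.6% and 18.6% of genes had such an interval. SPRED2 had RPKM of 4.68, 5.53, 2.85 and 2.96 in the same order. Both SPRED2 values with AR1-651 were below both with empty vector, and its changes with AIL were 0.20 and 0.04, the latter turning to -0.13 with median-ratio scaling.

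**Figure D3:**
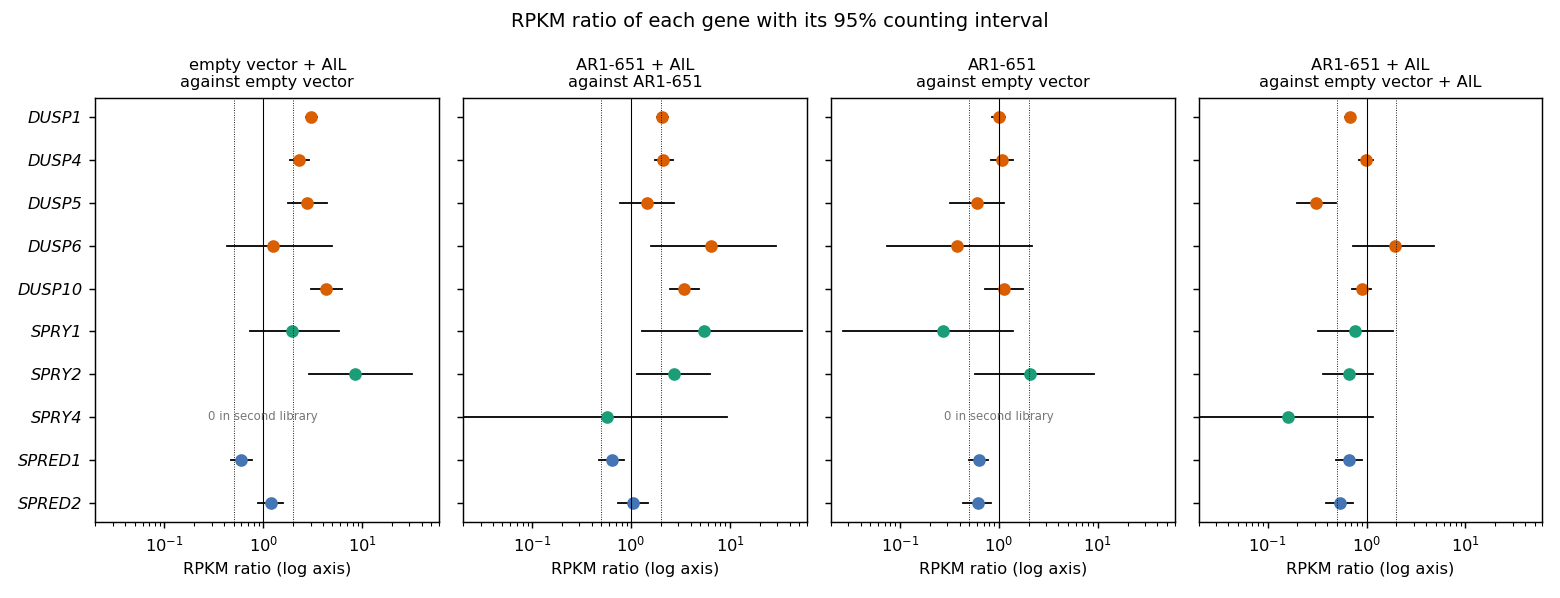
Ratio of RPKM between 2 libraries (log axis) for each gene in the 4 comparisons, with 95% counting intervals from approximate read numbers; dotted lines mark 2-fold, intervals that run past the axis are cut at its end, and no ratio is drawn where SPRY4 was listed at 0 in the second library. For AIL, DUSP1, DUSP4, DUSP10 and SPRY2 lie to the right of 1 in both backgrounds and SPRED1 to the left. In AR1-651 + AIL against empty vector + AIL the intervals of DUSP1, DUSP5, SPRED1 and SPRED2 lie below 1. Of all genes with a transcript length, 21.4% have such an interval there.

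Over all 10 genes, the RPKM was higher with AIL for 9 in the empty vector background, where 44.7% of the 19801 genes were higher, and for 8 in the AR1-651 background, where 53.3% were. Such shares of all genes, and those for counting intervals, also cover genes below RPKM 1 in every library. Of the genes that passed the filter, 48.3% and 56.2% were above 0. The counting interval lay above 1 for 6 genes in each, against 24.2% and 30.6% of the 18791 genes with a transcript length. DUSP1, DUSP4, DUSP10 and SPRY2 were among these 6 in both backgrounds. DUSP5 and SPRY4 were there with empty vector only, and DUSP6 and SPRY1 with AR1-651 only. The share of all genes above 1 in both backgrounds was not computed, so the overlap is a description only. The SPRY4 interval no longer excluded 1 when reads were computed from its shortest transcript. An interval that excludes 1 in 1 background and not in the other does not show a difference between backgrounds, which was not tested.

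The next comparison asked what AR1-651 did without AIL. None of the 8 genes was at least 2-fold higher or lower, where 4.01% of all genes were higher and 11.6% lower, or 7.37% and 5.61% with median-ratio scaling. Their median change was -0.22 against -0.30 for all genes. SPRED1 and SPRED2 were the only ones of the 10 with intervals below 1, which 35.1% of genes had, at ratios of 0.623 (0.494 to 0.785) and 0.609 (0.434 to 0.841). The change of SPRED1, -0.54 on the log2 scale, turned to 0.22 when the median of genes of similar length was subtracted, since those long transcripts had a median of -0.76, and the change of SPRED2, -0.56, came to -0.15. With reads computed from its shortest transcript, the SPRED2 interval included 1. DUSP1 was at -0.01 and turned to 0.25 with median-ratio scaling.

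The last comparison set AR1-651 + AIL against empty vector + AIL, and so shares its libraries with the AIL comparisons above. None of the 8 genes was at least 2-fold higher and 1 was at least 2-fold lower, DUSP5, where 1.46% of all genes were higher and 3.53% lower. The median change of the 8 genes was -0.42 against -0.03 for all genes. SPRY1 passed the filter only through the empty vector + AIL library, so it could only come out lower here. The median and the counts past 2-fold carry that limit. Of the 10 genes, 9 had the lower RPKM with AR1-651 + AIL, as had 49.5% of the 19801 genes, and the exception was DUSP6. The intervals lay below 1 for DUSP1, DUSP5, SPRED1 and SPRED2, against 21.4% of genes. For SPRED2 the ratio was 0.535 (0.389 to 0.733) and for SPRED1 0.668 (0.491 to 0.889). DUSP4 and DUSP10, at log2 differences of -0.01 and -0.15, did not differ beyond counting error, and the value of DUSP4 turned to 0.04 with median-ratio scaling.

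Other MAP kinase phosphatases were examined beside these genes. Of DUSP2, DUSP7, DUSP8, DUSP9 and DUSP16, all passed the filter. With AIL 1 was at least 2-fold higher in the empty vector background and 2 in the AR1-651 background, and none was lower. Over all genes 9.53% and 14.9% were higher and 9.03% and 5.74% lower. The median changes of the 5 phosphatases were 0.05 and 0.37. DUSP8, a phosphatase with a preference for JNK and p38, was at RPKM 8.37, 38.8, 4.30 and 18.4 in the 4 libraries. Its log2 changes with AIL were 2.09 and 1.87, larger than those of DUSP10, and it was lower with AR1-651 + AIL than with empty vector + AIL, at -1.04, or -0.99 with the length median subtracted. DUSP8 has pseudogene copies, so its reads are uncertain. DUSP16, which also acts on JNK, was at 15.5, 31.3, 9.54 and 30.5, with changes of 0.97 and 1.58, or 1.11 and 1.29 with the length medians subtracted. With AR1-651 none of the 5 passed 2-fold, where 4.01% of all genes were higher and 11.6% lower. The median of the 5 was -0.65. Under AIL 1 of the 5, DUSP8, was at least 2-fold lower, as were 3.53% of all genes, and the median was -0.39. The remaining Sprouty and SPRED genes were low. SPRY3 reached 0.43 at most and SPRED3, at 1.74, 1.95, 0.66 and 1.59, did not change 2-fold in any comparison.

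The cascade above ERK was covered by 22 genes from GRB2 to RPS6KA3, of which 21 passed the filter. In the empty vector background 1 was at least 2-fold higher with AIL and none lower, against 9.53% and 9.03% of all genes. The higher gene was HRAS, at RPKM 60.1 without and 131.2 with AIL. Its change of 1.11 came to 0.91 with the length median subtracted. In the AR1-651 background 4 were higher, a share of the 21 near the 14.9% of all genes. None was lower, against 5.74% of all genes. The largest changes there were 2.48 for SHOC2, a scaffold that activates RAF, and 1.79 for the kinase BRAF. With AR1-651 against empty vector, 3 were at least 2-fold lower, again a share near the 11.6% of all genes. None was higher, against 4.01% of all genes. NF1, the gene of neurofibromin and so of the partner of the SPRED proteins, was at 8.11, 4.73, 2.05 and 4.69 in the 4 libraries, with a change of -1.58, which came to -0.82 with the length median subtracted. RASA1, another RAS inhibitor, was at -1.45, or -1.03 with the length median subtracted. The remaining gene at least 2-fold lower, SOS1, went from -1.16 to -0.40 with the same subtraction. Under AIL none of the 21 differed 2-fold between the backgrounds, where 1.46% of all genes were higher and 3.53% lower. The list medians were -0.10, 0.33, -0.54 and 0.01 for AIL with empty vector, AIL with AR1-651, AR1-651 without AIL and AR1-651 with AIL. NF1 and BRAF have pseudogene copies. MAPK3, which encodes an ERK kinase, ranged from 30.4 to 49.3.

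Other genes known to be induced by ERK were taken as a list of 13, of which 12 were found and 9 passed the filter. With AIL 3 were at least 2-fold higher and 1 lower in each background, where 9.53% and 14.9% of all genes were higher and 9.03% and 5.74% lower, with medians of 0.76 and 0.91. FOS, EPHA4 and EGR1 passed the filter only through libraries with AIL, so the counts of higher genes and the medians are a description only. FOS, a partner in AP-1, was at RPKM 0.73, 16.2, 0.59 and 10.9 in the 4 libraries, with log2 changes of 3.32 and 2.91 with AIL. IER2, an immediate early gene, was at 49.1, 124, 24.9 and 71.7, with changes of 1.32 and 1.49. FOS, IER2 and DUSP1 were all higher in both libraries with AIL than in both without. EPHA4 was the other gene past 2-fold, at 0.15, 1.72, 0.14 and 1.43. Its change with AIL in the AR1-651 background, 1.09, came to 0.81 with the length median subtracted. MYC went the other way, at 63.0, 9.83, 26.5 and 7.86, with changes of -2.56 and -1.64. CCND1 was also lower with AIL in both backgrounds, at 105, 82.2, 105 and 64.5. Its ratios were 0.782 (0.733 to 0.833) and 0.613 (0.575 to 0.653), short of 2-fold. With the same limit of the filter, 6 of the 9 genes were above 0 with empty vector and 3 below. In the AR1-651 background 7 were above 0 and 2 below. Over all genes 48.3% and 56.2% were above 0. The ETS factors ETV4 and ETV5, close readouts of ERK along with DUSP6, stayed at or below 0.27 and 0.81. EGR1, a further immediate early gene, was at 0.75, 1.97, 0.23 and 1.44. With AR1-651 against empty vector none of the 9 was higher and 2 were lower, MYC at -1.22 and EPHA2 at -1.05. The shares of all genes were 4.01% higher and 11.6% lower. Under AIL EPHA2 was again lower, at -1.09, and none was higher, where 3.53% of all genes were lower and 1.46% higher. The medians for these comparisons were -0.51 and -0.29. How far FOS or IER2 bear on the DUSP values was not tested.

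The p38 and JNK kinases and their activators, the substrates and partners of DUSP1 and DUSP10, were represented by 10 genes. None of the 10 was 2-fold different in the empty vector background with AIL, and 1, MAPK11, was lower in the AR1-651 background, at -1.24. Over all genes 9.53% and 14.9% were higher in these backgrounds and 9.03% and 5.74% lower. None of the 10 differed 2-fold between the AR1-651 and empty vector libraries, without or with AIL. There 4.01% and 1.46% of all genes were higher and 11.6% and 3.53% lower. The medians of the 10 genes were -0.25, 0.07, -0.02 and 0.05 in the order of the comparisons above.

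**Figure D4:**
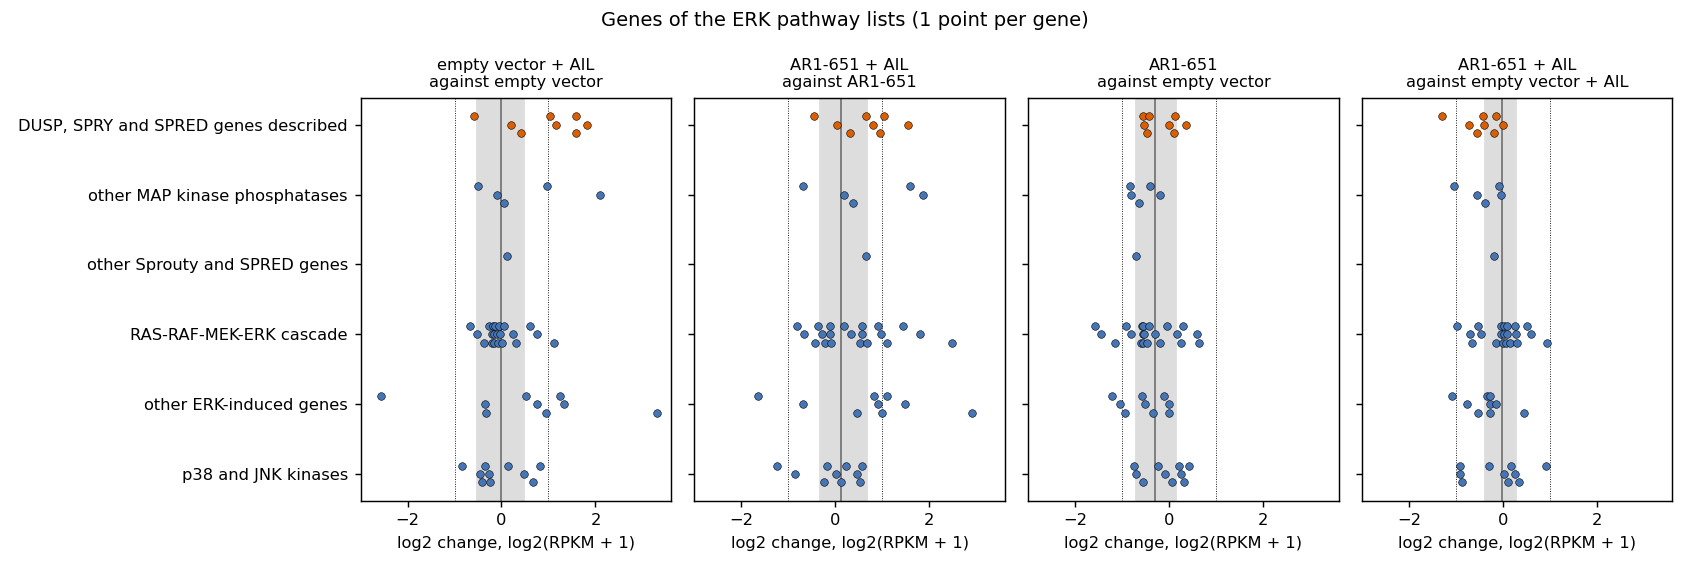
Change of each gene (1 point per gene that passed the filter) in the 4 comparisons as differences of log2(RPKM + 1), by gene list; the grey band holds the middle 50% of all genes, its line their median, and dotted lines mark 2-fold. With AIL the DUSP, SPRY and SPRED genes have medians of 1.10 and 0.73, and the other ERK-induced genes 0.76 and 0.91. The other MAP kinase phosphatases have 0.05 and 0.37, the cascade -0.10 and 0.33 and the p38 and JNK kinases -0.25 and 0.07. SPRY1, SPRY2, FOS, EPHA4 and EGR1 passed the filter only through libraries with AIL.

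The genes whose pattern over the 4 libraries was most like that of 1 gene of each family were sought among 10680 named genes that reached RPKM 5 in some library. Likeness was the Euclidean distance between the mean-centred log2 values, where 0 means the same pattern. For DUSP10 the nearest were HS3ST1 at 0.0507, OVOL2 at 0.0682 and BLNK at 0.135. For SPRY2 they were ZNHIT2 at 0.0783, ERICH2 at 0.148 and the pseudogene SMG1P5 at 0.152, which shares sequence with other copies. For SPRED1 they were DCAF12 at 0.0250, B4GALT3 at 0.0265 and AACS at 0.0509. With only 4 points per gene and so many candidates, near matches of this kind are easily found.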

How the data were processed

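RNA of LNCaP cells under 4 conditions was sequenced as 1 library each. Per the submitters' processing notes, BWA 0.7.10-r789 and the hg19 build were used. Values are listed by RefSeq transcript, and the counting tool and annotation release are not given in the sources used here. The labels name both a stranded rRNA-depletion kit and oligo(dT) enrichment, and whether counting used strand is not given. The authors deposited RPKM per gene, rounded to 2 decimals, with no read counts. RPKM is relative to the mapped reads of a library, so genes that take more reads lower the others.

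Symbols came from RefSeq by Entrez identifier (19703 of 19801 genes), and transcript lengths from GENCODE 29 through RefSeq identifiers (95.8% of the genes kept). Changes were differences of log2(RPKM + 1) over the 14626 genes that reached RPKM 1 in some library, and at least 2-fold on this scale was counted as higher or lower. The 4 libraries share controls between comparisons. Reads per gene were approximated as RPKM times length divided by the spacing of values in short transcripts (300 to 1500 nt). Of 469 to 503 such low genes, 58.4% to 63.6% lay within 0.1 of a whole read. Ratios carry exact Clopper-Pearson 95% intervals and levels exact Poisson intervals, for counting error only. Genes without a symbol match, such as ETV1, KRT5, TP63 and CD3E of the lists, were not analysed here. Upstream windows came from RefSeq on GRCh38.p14, a different build from that of the authors, and were used for letters only.

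Named genes were all 10 listed genes, up to the 2 largest rises and 2 largest falls past 2-fold of each companion list in each comparison, genes of these lists set beside a result, the 3 nearest in pattern to the gene with the widest range of each family, and KLK3. Some genes of this rule are not reported here. The members and lists were chosen with earlier results of these data known. The settings varied were median-ratio scaling, a pseudocount of 0.1, no filter, a filter at RPKM 5 in some library, a threshold of 1.5-fold and subtraction of the median change of the genes in 10 equal groups by transcript length. Calculations were tested on simulated data and were run in Python 3.11.15 with pandas 2.3.3, NumPy 2.4.6 and SciPy 1.17.1.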

Additional observations from a re-analysis of the deposited data

Results flagged for a closer look

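In 5 genes the log2 change with AR1-651 had opposite signs without and with AIL. The share of all genes with opposite signs was not computed, so this count is a description only. Of the 14626 genes that passed the filter, 32.2% had a change above 0 without AIL and 46.9% with AIL. DUSP4 went from 0.09 to -0.01 (difference -0.10), DUSP6 from -0.22 to 0.32 (0.54), DUSP10 from 0.12 to -0.15 (-0.27), SPRY2 from 0.36 to -0.43 (-0.79) and SPRY4 from 0.10 to -0.27 (-0.36). The change of SPRY4 with AIL was 0.32 with empty vector and -0.04 with AR1-651 (difference -0.36). The opposite signs of DUSP4 did not hold with median-ratio scaling (0.31 and 0.04) or with the length medians subtracted (0.66 and 0.05), nor those of DUSP6 with the latter (0.24 and 0.37). Each sign rests on 1 library per condition, and the difference was not tested. The counting intervals of these AR1-651 changes included 1 for DUSP4, DUSP10 and SPRY2, and DUSP6 and SPRY4 rest on at most 17 and 6 reads.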

How the results depend on the processing

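No paired analysis was possible because each condition has 1 library and no result comes from a test, and no replicate could be left out. The count of genes at least 2-fold higher with AIL in the AR1-651 background, 2, became 5 with a pseudocount of 0.1 and 5 at a threshold of 1.5-fold (DUSP1, DUSP4, DUSP10, SPRY1 and SPRY2 in both). The share of all genes also rose, from 14.9% to 20.6% and 28.6%. The count became 1 with median-ratio scaling and 1 with the length medians subtracted (DUSP10 in both), where 10.9% and 11.1% of all genes were higher. The count at least 2-fold lower with AR1-651 became 1 with a pseudocount of 0.1 (SPRY1), and that for AR1-651 + AIL against empty vector + AIL became 2 at 1.5-fold (DUSP5 and SPRED2). Of all genes, 20.8% and 15.5% were lower in these comparisons under these settings. The cause was not tested where the setting itself does not give it. The other counts stayed within 1.5 times under each setting, and no count past 2-fold turned its direction. Of 40 changes of the 10 genes, 40 kept their sign with a pseudocount of 0.1, 37 with median-ratio scaling and 35 with the length medians subtracted. The exceptions were SPRED2 with AIL in AR1-651, DUSP1, DUSP6 and SPRED1 with AR1-651, and DUSP4 under AIL. For AR1-651 against empty vector, median-ratio scaling moved the share of all genes at least 2-fold higher from 4.01% to 7.37% and lower from 11.6% to 5.61%. Depth limits DUSP6, SPRY1 and SPRY4, with 0 to 17 reads per library.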
